A study of Mus musculus with 4 samples.

Results

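The inner side of the young dentate granule cell layer was compared with its outer side, gene by gene, on 1 microarray for each side. The array held 30157 genes, and the 23835 whose brightest probe was well above background on at least 1 of both arrays were compared, of 30222 gene names in the whole series. Both samples came from wild-type C57Bl6J female mice aged 3 months with no other genotype or treatment named. The inner sample was cut from the side of the layer that faces the subgranular zone, and the outer sample from the side that faces the molecular layer, in the dorsal dentate gyrus. Coronal sections of 20 µm were dissected with a laser, each sample pooled tissue from 8 mice, and RNA was amplified and labelled with Cy3 before hybridisation to its own one-colour array. A matching pair from senile female mice of 20 to 24 months, made in the same way, is given beside the young pair where it helps. The labels do not say whether the inner and outer pools came from the same mice, so no pairing was assumed.

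The dentate granule cell layer is packed with the cell bodies of glutamatergic granule neurons. Its inner border, the subgranular zone, is one of the few places where neurons are born in the adult mouse brain: radial glia-like stem cells give rise to intermediate progenitors, these divide and give rise to neuroblasts, and the new granule neurons settle mainly in the inner part of the layer. Beneath that border lies the hilus, with mossy cells and many GABAergic interneurons, whereas the outer border meets the granule cell dendrites of the molecular layer. A captured strip holds every cell and process that crosses it. In such bulk samples, fewer cells of a type and less RNA per cell cannot be told apart.

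Levels below are log2 signals relative to the 75th percentile of the same array, so a level of 0 lies at that percentile, and differences are inner minus outer on that log2 scale. With 1 array a side there is no replicate error and no test; a gene was counted as higher or lower on the inner side when the arrays differed at least 2-fold. Where a gene was well above background on 1 array only, the fold is a bound, set against the higher of its own reading and the dimmest signal well above background on the other array, and is written "at least". Probes spotted at least 10 times (399 of them) varied with a median SD of 0.086 on the inner and 0.0913 on the outer array, and the difference of 2 single spots had an SD of 0.13, which covers spotting error only and neither the mice nor the amplification. Spots well above background made up 76.21% on the inner and 75.68% on the outer array, no spot was saturated, and precision is limited by having 1 array a side. For 5189 genes with a further probe above background, the differences of the brightest and the further probe correlated across genes with r = 0.206, genes not being independent replicates. Of 273 such genes called higher on the brightest probe, 179 had the same sign and 72 (26.4%) were also 2-fold higher on the further probe. Of 145 called lower, 89 had the same sign and 31 (21.4%) were also 2-fold lower. The difference on a further probe is given beside a described gene where it was small or of the other sign.

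On the inner side 1821 genes were at least 2-fold higher (7.64% of those compared) and 1137 at least 2-fold lower (4.77%), with a median difference of -0.02 over all genes. At a 4-fold minimum the counts were 542 and 246, and at 8-fold 144 and 54. The split between both directions depended on the background correction: 61.56% of the 2-fold calls were higher inside as reported, against 93.72% under normexp background correction, which moved the median of all genes to 0.30, and 50.26% once that median was subtracted. Dim genes gave most calls. In the dimmest of 3 equal groups by mean level 12.9% were higher and 8.53% lower, and in the brightest, at or above the 75th percentile, 1.54% (122 of 7945 genes) were higher and 0.478% (38) lower. The brightest genes therefore had the smaller background of large differences against which a member can be read.

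**Figure D1:**
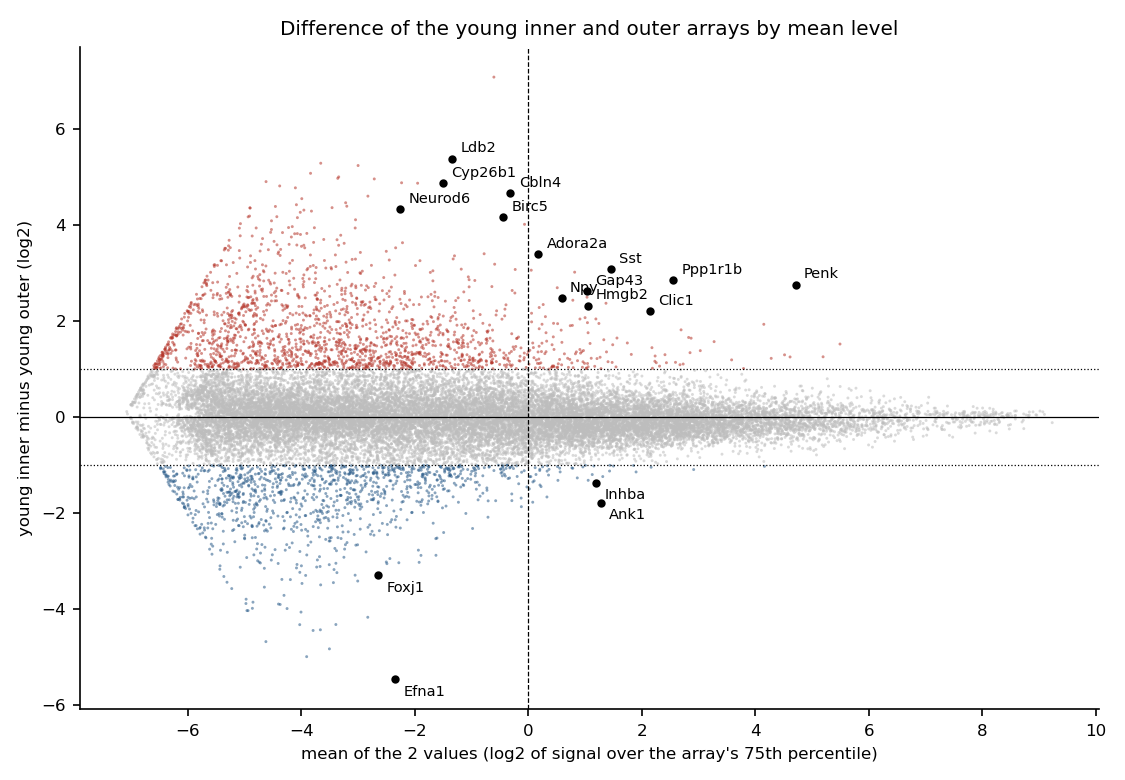
Each point is a gene, with the mean of its inner and outer log2 level on the horizontal axis and the inner minus outer log2 difference on the vertical axis; the dotted lines mark 2-fold and the dashed vertical line the 75th percentile of an array. Red points are at least 2-fold higher and blue points at least 2-fold lower on the inner side; the cloud narrows from left to right, and Ldb2, 5.38 above 0, is the highest labelled point.

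Among the 15 largest differences on the inner side, taken over genes with a symbol that were well above background on both arrays, was Ldb2, a LIM-domain binding cofactor, which read 1.35 on the inner and -4.03 on the outer array (41.7-fold; mm9 chromosome 5, 44863390 to 44863449). Tfap2d, an AP-2 family transcription factor, read -0.38 against -5.62 (37.7-fold), and Npas1, a transcription factor of GABAergic neurons, was 32.0-fold higher. The same group held Cckbr, P2ry1, Meis2, Cyp26b1, Cbln4, Crh, Msx2, Lyl1, Neurod6, Birc5 and Drd2, down to 16.1-fold. Among genes with a mean level above the 75th percentile the leaders inside were Adora2a, Sst, Flrt1, Tnfaip8l3, Ppp1r1b, Penk, Necab1, Gap43, Arl4c, Npy, Bcat1, Hmgb2, Tyro3, Clic1 and Cnr1, from 10.5-fold to 4.47-fold. Further probes of Flrt1, Tyro3 and Bcat1 differed by as little as 0.06, 0.10 and 0.15, and the other probe of Npas1 by 0.40. Hmgb2, a chromatin protein abundant in dividing cells, read 2.21 inside and -0.11 outside, and Clic1, a chloride intracellular channel protein, 3.25 and 1.05.

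On the outer side the largest fold belonged to Efna1, a membrane-bound ephrin ligand, which read -5.07 inside and 0.39 outside, 43.8-fold higher outside. The 15 largest also held Tmprss5, Stx2, Foxj1, Wfikkn2, Tnfsf9, Nr1i3, Agmat, Sgcd, Il13ra1, Rdh9, Pank1, Lrg1 and Nup214, each between 7.70-fold and 9.82-fold; the other probe of Nr1i3 differed by 0.18 in the other direction. Of the 15, 6 were still 2-fold apart under normexp background correction, whereas all 15 leaders of the inner side were. That correction moved all differences toward the inner side. With its median subtracted, 8 of the outer leaders and all 15 of the inner leaders were 2-fold apart. Genes above the 75th percentile differed less on the outer side: Ank1, which links the membrane to the spectrin skeleton, led with 0.39 inside and 2.17 outside (3.43-fold), followed by Maz (3.42-fold) and Hipk4 (3.17-fold), and the 15th, Tysnd1, differed 2.31-fold. Of the 6 genes in that group with a further probe above background, 1 had the same sign on it. Genes well above background on 1 array only were led inside by Crispld2 (at least 39.0-fold, but 0.09 on its other probe), Ecel1, Upb1, Slc27a6, Tbx1 and Eya2, and outside by Clec3a (at least 25.5-fold), Il17re, Olfr656, Tnp2, Jag2 and Esrrb. Olfr656 belongs to the olfactory receptors, a family of near-identical copies, so its probe may also read others.

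The granule neuron label held on both sides. All 34 listed genes of mature granule neurons were well above background on both arrays, and their summed level was 305.72 times the 75th percentile inside and 307.59 times outside. That sum includes Penk, also on the striatal list, which read 6.09 inside and 3.33 outside, whereas 28 of the 34 genes were lower inside. A sum without Penk was not taken, so the near-equal sums do not show that granule content was even. Prox1, the transcription factor that fixes granule identity, read 2.40 inside and 2.41 outside. Calb1, a calcium buffer of mature granule neurons, read 2.91 and 3.47, and Dsp, a desmosomal protein that marks the layer, 2.91 and 3.49. Both were lower inside by less than 2-fold, with differences of -0.56 and -0.58.

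The mature granule genes lay mostly below 0: 28 of 34 were lower inside, with a median of -0.35 against -0.02 over all genes, and the median stayed below 0 under every other scaling tried. At least 2-fold lower inside were 2 genes. Tdo2, a tryptophan-degrading enzyme that marks mature granule neurons, read -3.10 inside and -1.78 outside (2.50-fold), and Spint2, a membrane protease inhibitor, -1.86 and -0.79 (2.11-fold, -0.17 on its other probe). Short of 2-fold were Rfx3, a ciliary transcription factor (1.97 against 2.90), Cdh8, a cadherin (2.01 against 2.80), and Pitpnm2, a phosphatidylinositol transfer protein (2.07 against 2.70). The higher genes were Penk, which encodes proenkephalin and read 6.09 inside and 3.33 outside (6.77-fold), and Adarb2, an RNA editing family member, which just passed 2-fold. Penk is abundant in striatal neurons too and is also on the striatal list; without it the median was -0.38.

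Of the lists for stem cells, intermediate progenitors and neuroblasts, more than 1 in 3 compared genes were at least 2-fold higher inside. Of 33 radial glia and stem cell genes, 13 were at least 2-fold higher and 0 lower, with 25 above 0 and a median of 0.77; of 17 intermediate progenitor genes 16 were compared, with 6 higher, 0 lower and a median of 0.55; and of 36 neuroblast and immature neuron genes 13 were higher and 0 lower, with 29 above 0 and a median of 0.43. Over all genes 7.64% were higher, 4.77% lower and the median was -0.02. Under normexp background correction, with 4.45% of all genes higher and 0.298% lower, the 13 stem cell genes became 7; with its median subtracted, at 1.62% and 1.6% of all genes, they became 2; the neuroblast count was 8 in the latter setting, with a median near 0. Genes of striatal projection neurons moved the same way: 19 of 37 were at least 2-fold higher inside, their summed level was 180.85 times the 75th percentile inside and 82.57 outside, and 1 of them inside and 4 outside were not well above background. Penk, which read 6.09 inside and 3.33 outside, is part of that sum. The part of the striatal genes in the lineage counts was not tested.

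**Figure D2:**
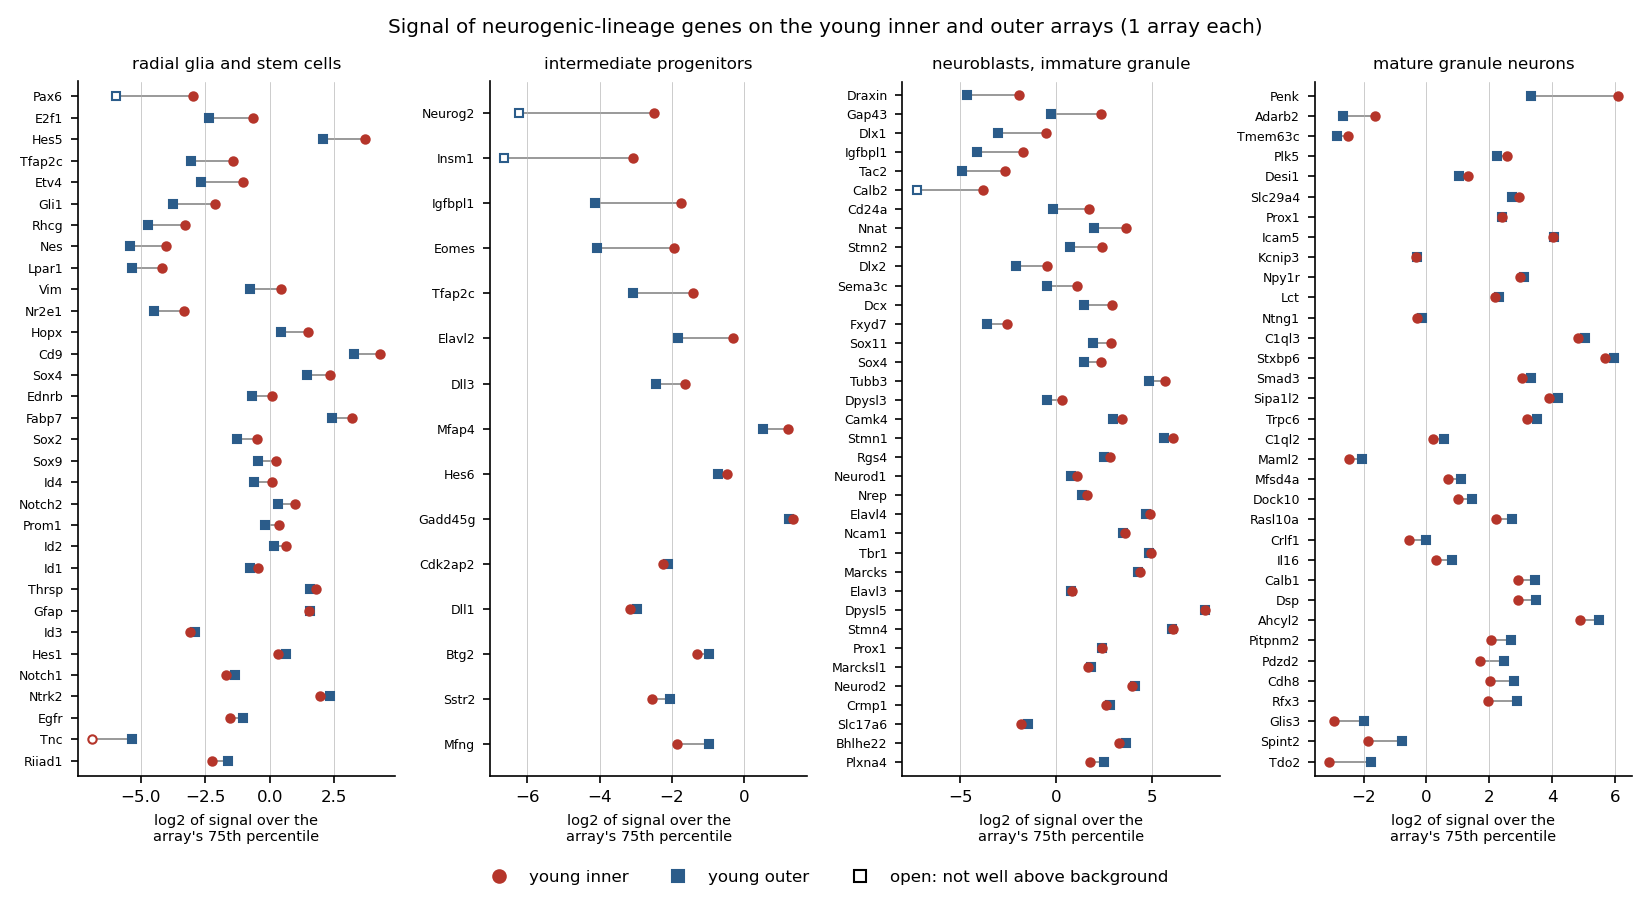
Log2 level relative to the 75th percentile (horizontal axis) of the compared genes of radial glia, intermediate progenitors, neuroblasts and mature granule neurons in 4 panels, on the young inner array (red circles) and the young outer array (blue squares); an open symbol was not well above background. The red circles lie to the right for most genes of the first 3 panels, and to the left for 28 of the 34 mature granule genes.

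Hes5, the Notch effector that keeps radial glia undifferentiated, read 3.69 inside and 2.05 outside (3.12-fold). Pax6, a transcription factor of radial glia, was well above background only inside (-2.96, at least 7.98-fold). Nes, the intermediate filament nestin, read -4.02 and -5.42 (2.63-fold), and Vim, the filament vimentin, 0.43 and -0.75 (2.26-fold). Hopx, a homeodomain protein of quiescent stem cells, read 1.47 and 0.44 (2.05-fold), with a difference of 1.29 on its other probe. Nr2e1, the nuclear receptor Tlx that sustains stem cell renewal, read -3.33 and -4.48 (2.22-fold). Gli1, a hedgehog target of active stem cells, read -2.14 and -3.77 (3.09-fold), but its other probe differed by 0.11 only. Also past 2-fold were E2f1, Tfap2c, Rhcg, Lpar1, Cd9 and Etv4, although the mean over the probes of Etv4 was -0.22.

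Several general stem cell and astroglial genes did not reach 2-fold. Sox2, which keeps cells undifferentiated, read -0.49 inside and -1.25 outside, a difference of 0.77, and Fabp7, a fatty acid carrier of radial glia, 3.19 and 2.41 (0.79). Sox9 differed by 0.71. Gfap, shared by radial glia and astrocytes, read 1.52 and 1.56, a difference of -0.04. Nes, Vim and Hes5 were past 2-fold, and Gfap was close to even.

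Intermediate progenitors are marked by a short-lived set of transcription factors, and these gave larger folds at lower levels. Eomes, the T-box factor Tbr2 that defines the stage, read -1.94 inside and -4.08 outside (4.41-fold), with a difference of 3.34 on its other probe (mm9 chromosome 9, 118395189 to 118395248). Neurog2, the proneural factor upstream of it, was well above background only inside (-2.50, at least 11.2-fold), as was Insm1, a zinc finger factor of dividing progenitors (-3.09, at least 7.46-fold). Igfbpl1, a secreted binding protein of progenitors, read -1.73 and -4.12 (5.23-fold). Elavl2, an RNA-binding protein at the start of neuronal differentiation, read -0.30 and -1.83 (2.88-fold), with 2.04 on its other probe. Neurod4 was not well above background on either array, and Mfng, which modifies Notch, had the lowest difference of the list at -0.87.

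Most neuroblast genes were well above background on both arrays. Dcx, the microtubule protein doublecortin of migrating neuroblasts, read 2.90 inside and 1.46 outside (2.72-fold), and its 2 further probes differed by 1.52 and 2.10. Gap43, a growth cone protein, read 2.35 and -0.27 (6.15-fold). Stmn2, which destabilises microtubules in growing axons, read 2.39 and 0.74 (3.13-fold), and Sema3c, a secreted guidance cue, 1.12 and -0.47 (2.99-fold, 1.74 on its other probe). Cd24a, a surface protein of neuroblasts, read 1.73 and -0.18 (3.76-fold). Draxin, an axon guidance protein, read -1.94 and -4.62 (6.42-fold), and Calb2, the calretinin of the early postmitotic stage and of some interneurons and mossy cells, was above background only inside (-3.80, at least 4.56-fold).

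Other listed neuroblast genes differed less. Sox11, which drives the expression of Dcx, read 2.86 inside and 1.94 outside, a difference of 0.92, Tubb3, neuronal tubulin, 5.67 and 4.87 (0.80), and Sox4 differed by 0.88. Neurod1, needed for the survival of new granule neurons, differed by 0.31. The lowest was Plxna4, a semaphorin receptor, at 1.77 and 2.52. Dlx1 and Dlx2, which are also factors of GABAergic neurons, were 5.67-fold and 3.06-fold higher, and Dlx1's other probe differed by 0.36.

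Many genes of dividing cells were higher inside, and none of them was 2-fold lower, beside 7.64% higher and 4.77% lower over all genes. Of 46 genes of the G2 phase and mitosis 40 were compared: 17 were at least 2-fold higher, 0 lower, 34 lay above 0 and the median was 0.68. Of 36 genes of the G1 to S transition and replication 34 were compared: 8 were higher, 0 lower and the median was 0.24. The difference between both lists was not tested. The 6 mitotic genes not above background on either array were Top2a, Kif2c, Cdc25c, Ttk, Kif23 and Cenpf. Under normexp background correction, with 4.45% of all genes higher, 11 mitotic genes were 2-fold higher. With its median subtracted, at 1.62% of all genes, 7 were.

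Mki67, whose protein Ki-67 coats mitotic chromosomes and marks dividing cells, read 0.40 inside and -2.52 outside (7.57-fold), with 1.31 on its other probe (mm9 chromosome 7, 142884764 to 142884823). Birc5, the survivin subunit of the chromosomal passenger complex, read 1.64 and -2.53 on its brightest probe, a difference of 4.17, and 0.89 apart on the other. Aurka, a spindle pole kinase, read -0.89 and -3.47 (5.95-fold). Among kinetochore genes, Ndc80 (-1.68, at least 19.5-fold) and the checkpoint kinase Bub1 (-1.80, at least 18.2-fold) were above background only inside, and Spc25 read -0.25 and -2.67 (5.33-fold). Kif11, the motor that separates spindle poles, was at least 5.52-fold higher, and Nek2, a centrosomal kinase, 8.65-fold.

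The regulators of mitotic entry and exit went the same way at low levels. Foxm1, the transcription factor of mitotic genes, read -3.66 inside and -5.69 outside (4.07-fold), Ccna2, cyclin A, -3.38 and -5.32 (3.83-fold), and Ccnb2, a B-type cyclin, -2.97 and -4.82 (3.60-fold). Cdc20, which activates the anaphase-promoting complex, was 2.55-fold higher, Ube2c, its ubiquitin-conjugating partner, 2.24-fold (0.31 on its other probe), and Plk1, a mitotic kinase, 2.10-fold. Ect2, Cenpe and Prc1 also passed 2-fold. Cdk1, the kinase these cyclins switch on, read -2.96 and -3.12, a difference of 0.17, and Ccnb1 differed by 0.19. Racgap1 and Cdca8 stayed under 2-fold on the brightest probe (0.90 and 0.26) and were 2.84 and 3.23 apart on the other.

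Among replication genes, Dtl (-2.21, at least 13.7-fold) and the origin licensing factor Cdc6 (-2.73, at least 9.54-fold) were above background only inside. Rrm2, the S-phase subunit of ribonucleotide reductase, read -0.45 inside and -2.16 outside (3.27-fold), Uhrf1, which maintains DNA methylation at replication, -0.14 and -1.83 (3.23-fold, 1.84 on its other probe), and Mcm3, a helicase subunit, -0.41 and -1.66 (2.38-fold, 1.25 on its other probe). E2f1, Rfc3 and Prim1 completed the 8. Pcna, the polymerase clamp, read 2.49 and 2.45 and Mcm2 differed by 0.12. Of 17 inhibitors of division 0 were 2-fold higher and 1 lower, beside 7.64% and 4.77% of all genes. The lower one was Gadd45b (-2.63 against -1.16). Cdkn2c, a cyclin-dependent kinase inhibitor, read 0.87 and -0.13, just under 2-fold.

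**Figure D3:**
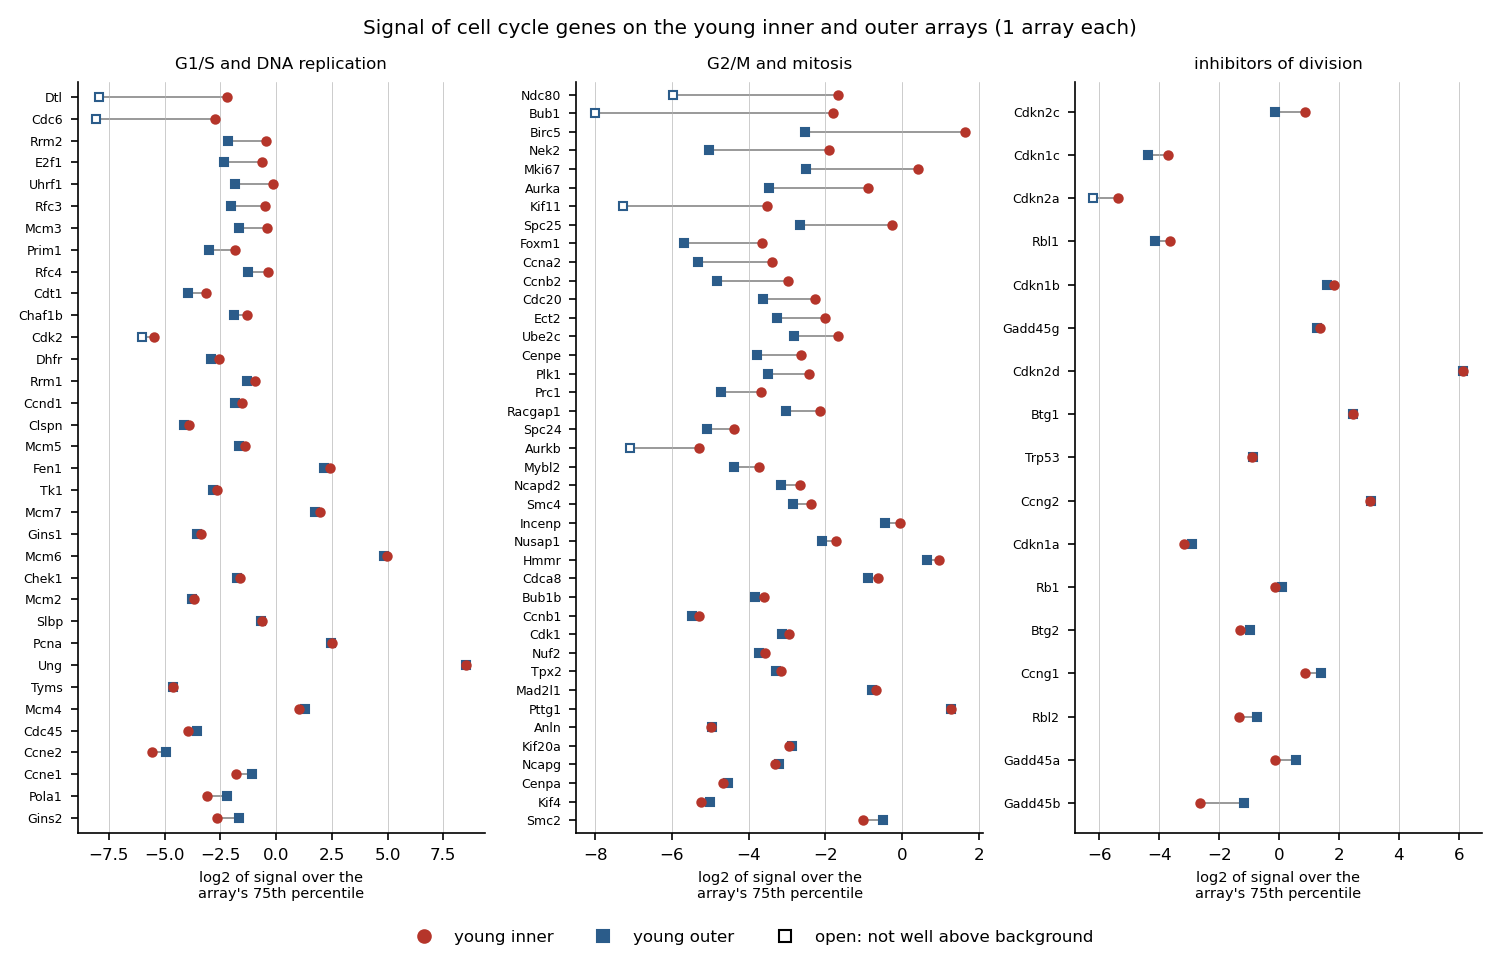
Log2 level relative to the 75th percentile (horizontal axis) of each gene of the G1/S, G2/M and division-inhibitor lists in 3 panels, on the young inner array (red circles) and the young outer array (blue squares), with open symbols for values not well above background. The red circles lie to the right for 34 of the 40 compared genes of the G2/M panel.

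Mitotic genes share promoter elements that time their transcription to the end of the cycle, so the DNA before their start sites is shown for 5 genes higher inside. The elements searched on both strands were TTTGAA (the cell cycle homology region, CHR), CCAAT (the CCAAT box bound by NF-Y), and TTCGCGC and TTGGCGC, forms of the E2F site of replication genes. The sequences are the 250 bases before the start from RefSeq on GRCm38.p6, 5′ to 3′ on the gene's strand, with capitals marking each match on either strand (ATTGG and TTCAAA are matches on the opposite strand).
Mki67, chr7:135716380-135716629, minus strand: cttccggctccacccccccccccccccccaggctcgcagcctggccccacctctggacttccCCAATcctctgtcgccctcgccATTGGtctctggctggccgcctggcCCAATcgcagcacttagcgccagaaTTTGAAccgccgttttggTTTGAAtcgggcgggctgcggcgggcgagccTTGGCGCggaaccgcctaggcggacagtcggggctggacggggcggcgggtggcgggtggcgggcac
Ccnb2, chr9:70421555-70421804, minus strand: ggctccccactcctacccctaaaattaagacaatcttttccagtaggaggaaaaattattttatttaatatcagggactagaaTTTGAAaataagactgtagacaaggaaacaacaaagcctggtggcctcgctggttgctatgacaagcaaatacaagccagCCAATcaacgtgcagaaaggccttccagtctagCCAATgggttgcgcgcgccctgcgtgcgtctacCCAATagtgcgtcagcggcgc
Cdc20, chr4:118437344-118437593, minus strand: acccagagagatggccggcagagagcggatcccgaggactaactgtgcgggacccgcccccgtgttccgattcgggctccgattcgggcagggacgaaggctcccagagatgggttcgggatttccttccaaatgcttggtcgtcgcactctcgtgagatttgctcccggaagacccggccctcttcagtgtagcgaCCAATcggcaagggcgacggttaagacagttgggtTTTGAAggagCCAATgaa
Ube2c, chr2:164769679-164769928, plus strand: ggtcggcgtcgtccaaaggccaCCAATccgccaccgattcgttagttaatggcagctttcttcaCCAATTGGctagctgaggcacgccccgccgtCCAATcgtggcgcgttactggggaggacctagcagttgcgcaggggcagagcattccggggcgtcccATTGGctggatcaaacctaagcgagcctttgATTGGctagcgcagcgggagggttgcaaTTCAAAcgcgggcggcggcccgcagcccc
Birc5, chr11:117848987-117849236, plus strand: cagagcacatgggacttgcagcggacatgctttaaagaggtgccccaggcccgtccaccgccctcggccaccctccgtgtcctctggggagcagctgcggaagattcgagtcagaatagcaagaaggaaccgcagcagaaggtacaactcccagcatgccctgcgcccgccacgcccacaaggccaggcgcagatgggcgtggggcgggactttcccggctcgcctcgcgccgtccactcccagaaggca
Mki67 held 2 CHR matches, 116 to 111 and 98 to 93 bases before the start, with 3 CCAAT matches upstream of them and 1 E2F match. Ccnb2 held 1 CHR match and 3 CCAAT matches, Cdc20 1 CHR match 18 to 13 bases before the start between 2 CCAAT matches, and Ube2c 1 CHR match and 6 CCAAT matches, of which 2 on opposite strands overlap. Birc5, the mitotic gene with the largest fold among those above background on both arrays, had no match to any of these letters in this window.

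A window was found for 15 of the 17 mitotic genes that were 2-fold higher, all but Foxm1 and Ccna2. CCAAT matched in 13 of the 15 (86.7%), against 34.5% of 27025 gene windows of the same length, and at least 2 CCAAT matches occurred in 8 (53.3%) against 10.5%. CHR matched in 6 (40.0%) against 16.3%, always with CCAAT in the same window, a pairing present in 5.73% of all. An E2F form matched in 1 (6.67%) against 3.23%. Of the 23 mitotic genes compared that were not 2-fold higher 17 had a window, with CCAAT in 11 (64.7%) and CHR in 4 (23.5%), so the elements also occurred in listed genes that differed little. Over the full 300 bases of the RefSeq window, which reach past the start, CHR matched in 11 of the 15 (73.3%), in 11 of these 17 (64.7%) and in 18.1% of all, so the gap between both groups of mitotic genes was smaller there. The 8 replication genes higher inside all had windows: 0 held CHR, 6 held CCAAT and 2 an E2F form. A match describes letters in a window and not a bound site.

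The signalling lists of the niche gave calls in both directions, with 11.1% (BMP and TGF-beta) to 36.8% (retinoid) of the compared genes higher, beside 7.64% of all genes, and 0% (retinoid) to 13.9% (BMP and TGF-beta) lower, beside 4.77%. Of 19 retinoid genes 7 were 2-fold higher, 0 lower, and the median was 0.58. With genes above background on both arrays only, 4 were higher, and under normexp less its median 2 were higher and 1 lower; Rarb and Rxrg of this list also stand on the striatal list. Cyp26b1, which degrades retinoic acid, read 0.92 inside and -3.94 outside (29.2-fold; mm9 chromosome 6, 84521952 to 84522011). Crabp1, a retinoic acid binding protein, read -1.89 and -3.93 (4.10-fold), and the receptor gene Rarb -0.37 and -2.38 (4.01-fold), although its other probes differed by 0.06 to 0.29. Rarg, Rara, Aldh1a3 and Cyp26a1 also passed 2-fold, 3 of them as bounds on dim genes. Aldh1a1, a retinoic acid synthesising enzyme, was lower inside short of 2-fold (1.17 against 2.06).

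Hedgehog signalling maintains the stem cell pool, and 4 of its 16 genes were 2-fold higher and 1 lower. The ligand Shh read -1.76 inside and -4.49 outside (6.63-fold) and Gli3, a transcription factor of the pathway, -1.12 and -2.87 (3.37-fold), whereas the transducer Smo read 6.58 and 6.77. Ptch1, the receptor and a target, differed by -0.30 on its brightest and 1.36 on its other probe. Gli2 was above background only outside, a direction that turned under normexp background correction. Of 24 Notch genes 3 were higher and 2 lower: beside Hes5 these were Notch4 (4.21-fold) and the ligand Dner (3.72 against 2.34, 2.61-fold). The ligand Jag2 was above background only outside (-1.89, at least 15.8-fold) and Rbpj, the transcription factor of the pathway, read -0.41 and 0.65, but -0.11 apart on its other probe. Notch1 differed by -0.34 and Notch2 by 0.67.

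Of 44 Wnt genes 38 were compared, with 8 higher and 2 lower. Rspo2, a Wnt potentiator, was above background only inside (-2.97, at least 8.07-fold). Secreted antagonists fell on both sides: Dkk3 (0.17 inside, -1.42 outside) and Sfrp1 (2.94-fold) were higher inside, and Sfrp2 (-2.81 against -0.97) was higher outside, as was the ligand Wnt9a (-1.58 against 0.17). Axin2, a target gene read as a sign of active signalling, differed by 0.07. Of 36 BMP and TGF-beta genes 4 were higher and 5 lower. Bmp7 read -4.09 inside and -5.37 outside, whereas Bmp6 (-3.36 against -1.99) and Inhba, the activin subunit induced by neuronal activity (0.51 against 1.87, 2.58-fold), were higher outside. The antagonist Nog differed by 0.17.

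Growth factor genes included 6 of 42 higher and 3 lower. Igf1, an insulin-like factor made by glia and interneurons, read -0.99 inside and -2.81 outside (3.53-fold, 0.62 to 2.25 on its other probes), and Hbegf, an EGF receptor ligand, 1.61 and 0.21 (2.65-fold). Nrg2, a neuregulin, was higher outside (-1.05 against 0.81) on its brightest probe and 1.18 the other way on the further one. Bdnf, the neurotrophin of granule neurons, differed by -0.20. Of 21 chemokine genes 16 were compared, with 4 higher and 2 lower. Cxcr4, the receptor that guides new neurons, read 1.35 and -0.74 (4.26-fold), and its ligand Cxcl12 1.69 and 1.22, short of 2-fold. Cxcl14, a chemokine of interneurons, read 2.14 and 0.53 (3.05-fold).

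Many genes of the neurons that lie under the layer were higher inside, beside 7.64% higher and 4.77% lower over all genes. Of 23 genes shared by GABAergic neurons 17 were 2-fold higher inside, 0 lower, with a median of 1.25; of 34 interneuron class markers 17 were higher, 0 lower, with a median of 0.90; and of 29 mossy cell and hilus genes 10 were higher and 1 lower, with a median of 0.28. Leaving out genes also on the striatal list, a setting added after seeing the data, gave 16 of 22, 15 of 32 and 9 of 28 higher. Under normexp background correction, with 4.45% of all genes higher, the counts over the full lists were 12, 15 and 9. With its median subtracted, at 1.62% of all genes, they were 6, 12 and 8. In both settings 0, 1 and 0 genes of these lists were lower. The summed level of the interneuron markers was 168.32 times the 75th percentile inside and 89.82 outside. Penk, which stands on the interneuron and striatal lists, read 6.09 inside and 3.33 outside. It made up much of the gap in this sum and in the striatal sum, and sums without it were not taken. The summed level of the shared GABAergic genes was 324.29 inside and 298.27 outside. Most of both sums came from the brightest probe of Lhx6, which was slightly lower inside, whereas its other probe was higher inside. A sum without Lhx6 was not taken, so these sums do not show that the GABAergic total was near even. The mossy cell and hilus genes had a lower sum inside, at 167.34 against 185.99. The striatal list summed to 180.85 inside and 82.57 outside, and its part in these counts was not tested.

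The enzymes and carriers of GABA came first in level. Gad2, a glutamate decarboxylase, read 5.82 inside and 4.57 outside (2.39-fold), and Slc32a1, the vesicular GABA transporter, 4.06 and 2.49 (2.97-fold, 0.99 on its other probe). Gad1, which granule neurons also express, read 3.09 and 2.88, a difference of 0.21. The transcription factors gave the larger folds: Npas1 read -0.84 and -5.84 (0.40 apart on its other probe), and Dlx6 was above background only inside (-1.90, at least 17.0-fold). Its antisense partner Dlx6os1 was 6.70-fold higher, and since the sources used here do not give the strand of the labelled product, both may share signal. Lhx6, a factor of somatostatin and parvalbumin interneurons, read 7.80 and 7.97 on its brightest probe and 2.47 apart on the other.

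Peptides and receptors of interneurons differed strongly. Sst, somatostatin of hilar interneurons, read 3.00 inside and -0.09 outside (8.50-fold; mm9 chromosome 16, 23889776 to 23889835), and Npy, neuropeptide Y of overlapping cells, 1.82 and -0.65 (5.56-fold). Crh, corticotropin-releasing hormone, read -0.52 and -5.12 (24.2-fold), and Vip was above background only inside (-2.31, at least 12.8-fold). Tac1, the substance P precursor, which also stands on the striatal list, read 1.31 and -1.77 (8.42-fold). Cnr1, the cannabinoid receptor of cholecystokinin interneurons, read 1.14 and -1.02 (4.47-fold), while Cck itself read 5.11 and 4.57 (0.55). Reln, Kit, Htr3a and Lamp5 passed 2-fold. Pvalb, the calcium buffer of basket cells whose axons wrap granule cell bodies, was lower inside, at 3.69 and 4.61, with -0.84 on its other probe.

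Among mossy cell genes, Drd2, a dopamine receptor that marks mossy cells and also striatal neurons, read 1.94 inside and -2.07 outside (16.1-fold). Necab1, a calcium-binding protein, read 1.86 and -0.84 (6.46-fold), Nmb, neuromedin B, 1.06 and -1.53 (5.99-fold, 2.72 on its other probe), and Rgs12, a regulator of G protein signalling, -0.34 and -2.83 (5.62-fold). Cntn6 and Sv2b were 5.87-fold and 4.90-fold higher. Of 33 pyramidal neuron genes of the CA fields 7 were higher and 2 lower, beside 7.64% and 4.77% of all genes, with a median of 0.20. Neurod6, a factor of pyramidal neurons, read -0.09 and -4.43 (20.2-fold), and Wfs1, a marker of CA1, 1.28 and -0.39 (3.18-fold). Pcp4, a marker of CA2 that granule neurons also express, read 7.23 and 7.61.

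Genes of striatal projection neurons, a cell type of another brain region, crossed this comparison with 19 of 37 higher, 0 lower and a median of 1.36. Over all genes 7.64% were higher and 4.77% lower. Meis2 read 0.49 inside and -4.38 outside, Adora2a, an adenosine receptor, 1.87 and -1.52 (10.5-fold), and Ppp1r1b, the DARPP-32 protein, 3.98 and 1.13 (7.25-fold). Drd1 read -1.36 and -1.48, Pde10a differed by -0.04 on its brightest probe, and Ebf1 was not above background on either array. Leaving out genes that stand on other lists, 11 of 23 were higher with a median of 0.75.

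**Figure D4:**
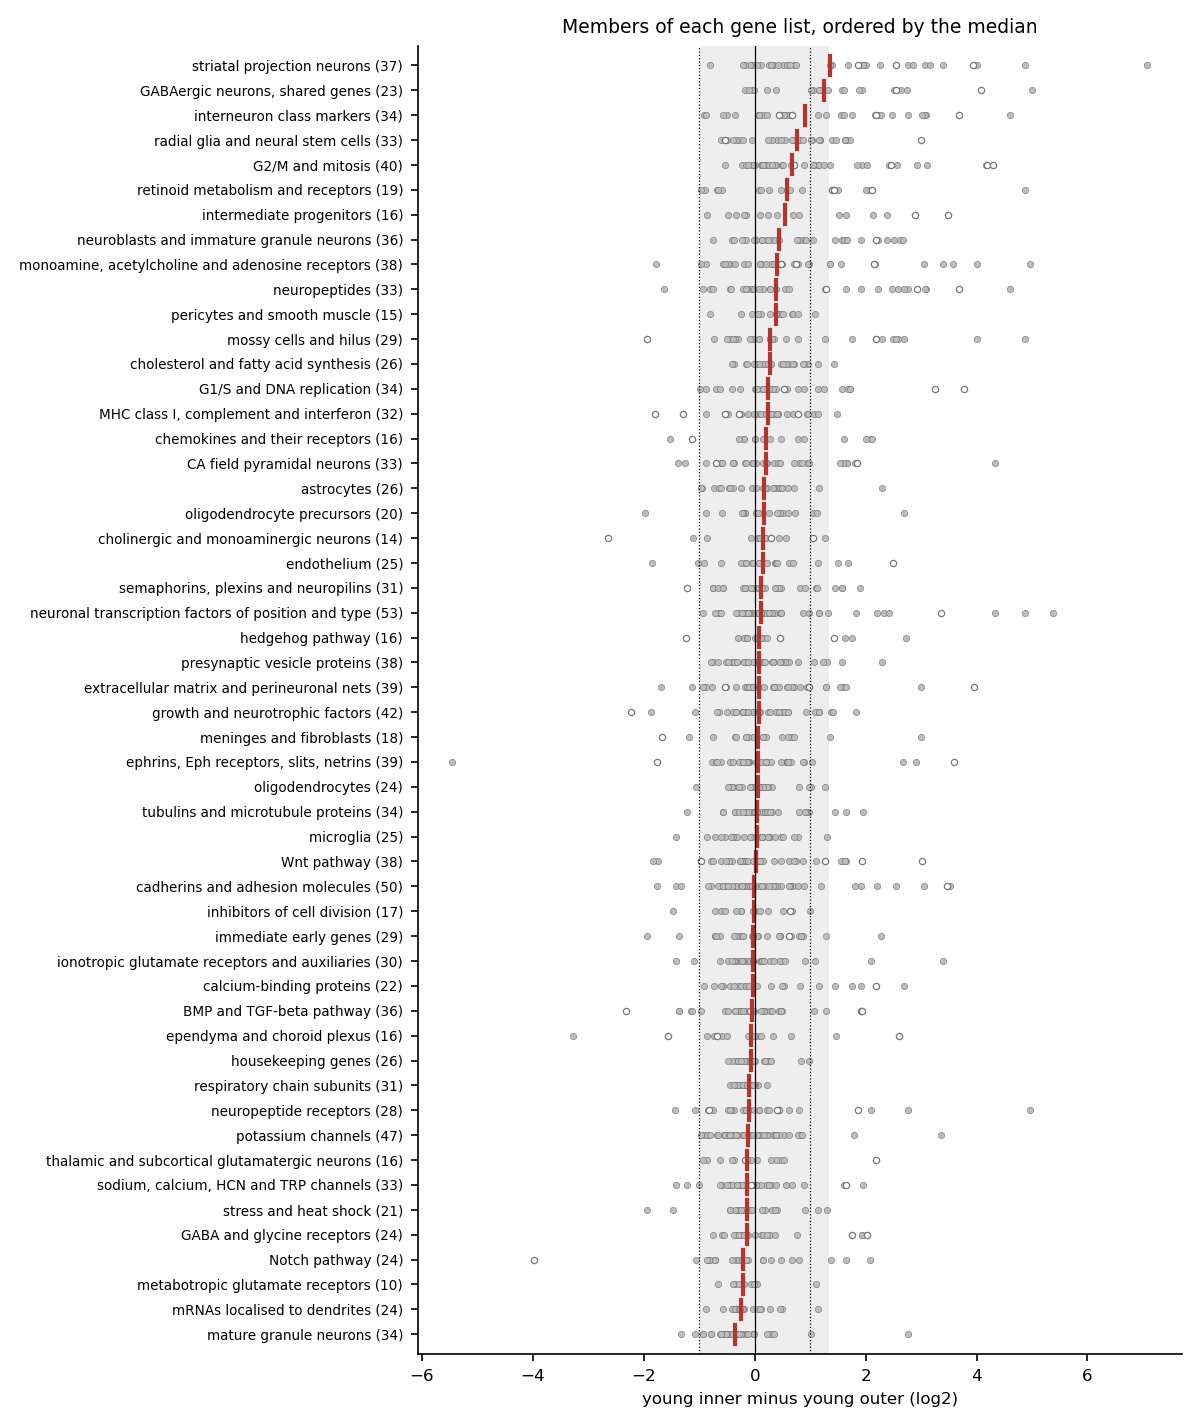
Inner minus outer log2 difference (horizontal axis) of the compared members of each gene list, 1 list a line with the number compared in parentheses; the red bar is the list's median, open symbols are bounds, dotted lines mark 2-fold and the grey band holds the middle of all genes from the 5th to the 95th percentile (-0.97 to 1.33). The GABAergic, interneuron, striatal, stem cell and mitotic lists lie furthest to the right, and the mature granule list lies left of 0.

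Glial, vascular and border lists had 4% to 16% of their genes higher inside, beside 7.64% of all genes, and 0% to 12.5% lower, beside 4.77%. Astrocyte genes gave 2 of 26 higher and 0 lower, oligodendrocyte genes 2 of 24 and 1, oligodendrocyte precursor genes 3 of 20 and 1, microglia 1 of 25 and 1, endothelium 4 of 25 and 2, pericytes 1 of 15 and 0, meninges 2 of 18 and 2, and ependyma 2 of 16 and 2. Their medians ran from -0.06 for ependyma to 0.38 for pericytes. Slc7a10, an astrocyte amino acid exchanger, read -2.59 inside and -4.88 outside, and Mfge8, a phagocytosis bridge protein, 2.81 and 1.65, whereas the water channel Aqp4 was lower inside short of 2-fold (0.20 against 1.16). Mag, a myelin glycoprotein, was 2.41-fold and the microglial receptor Trem2 2.47-fold higher. C1ql1, of oligodendrocyte precursors, read -3.09 and -5.77, and the matrix proteoglycan Bgn of the meninges -1.46 and -4.47. Higher outside were Neu4, a sialidase (-3.60 against -1.61), Ptprb, an endothelial phosphatase (-2.37 against -0.52, but higher inside on the mean of its probes), and Foxj1, the master factor of motile cilia (9.75-fold).

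Transmitter receptor lists differed in how many genes were higher inside, beside 7.64% of all genes. Ionotropic glutamate receptor genes gave 3 of 30 higher and 2 lower, led by the kainate receptor auxiliary Neto2 (0.92 inside, -2.48 outside, 10.6-fold, 1.19 on its other probe). GABA and glycine receptor genes gave 4 of 24 higher and 0 lower: Gabrg3 read 1.21 and -0.72, with 1.25 to 2.36 on its other probes, and Gabra3 5.12 and 3.18, but -0.25 on a further probe. Receptors for monoamines, acetylcholine, adenosine and related messengers gave 10 of 38 higher (26.3%) and 1 lower with a median of 0.39. This list shares 4 genes with the striatal list, and without these 8 of 34 were higher and 1 lower. P2ry1, a nucleotide receptor, read -0.23 and -5.19 (31.1-fold), and the serotonin receptor Htr2c -0.16 and -3.20 (8.26-fold, 3.78 on its other probe).

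Neuropeptide genes gave 14 of 33 higher and 1 lower with a median of 0.38, beside 7.64% and 4.77% of all genes. This list shares 11 genes with the interneuron list and 3 with the striatal list. Without the striatal genes 12 of 30 were higher and 1 lower. Beside Penk and the interneuron peptides, Nts, neurotensin, was above background only inside (at least 7.61-fold). Peptide receptors gave 4 of 28 higher and 2 lower, led by Cckbr, the brain cholecystokinin receptor (-0.87 against -5.84, 31.4-fold). Potassium channel genes gave 2 of 47 higher and 0 lower, Kcns3 (0.38 against -2.98) and Kcna5 (0.19 against -1.60, 1.73 on its other probe). Of 33 sodium, calcium, HCN and TRP channel genes 3 were higher and 3 lower. The sodium channel subunit Scn4b, which also stands on the striatal list, read 2.22 inside and 0.27 outside (3.86-fold).

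Lists for synapses and dendrites had 0 genes 2-fold lower inside, beside 4.77% of all genes lower and 7.64% higher. At that share, lists of this length would hold few lower genes. Presynaptic vesicle genes gave 5 of 38 higher and 0 lower, among them Rab3c (4.89 inside, 3.67 outside, but -0.21 to -0.06 on its other probes), and Slc17a7, the vesicular glutamate transporter of granule neurons, was lower inside short of 2-fold (1.93 against 2.72). mRNAs localised to dendrites gave 1 of 24 higher and 0 lower with a median of -0.24; the dendritic mRNA Ddn read 0.80 and 1.68. Immediate early genes, which mark recent activity, gave 2 of 29 higher and 2 lower: Ier2 was 4.85-fold higher and Atf3 3.83-fold lower inside.

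Guidance and adhesion lists carried some of the largest single folds. Of the compared genes of these, the matrix and the microtubule lists, 8.82% (tubulin) to 19.4% (semaphorin) were higher, beside 7.64% of all genes. From 2.94% (tubulin) to 6% (cadherin) were lower, beside 4.77%, so several counts lay near the shares over all genes. Semaphorin genes gave 6 of 31 higher and 1 lower, with Sema3a 3.74-fold higher (2.54 on its other probe). Ephrin, Eph, slit and netrin genes gave 4 of 39 higher and 2 lower: Efnb1, an ephrin of progenitors, read -1.09 inside and was 7.49-fold higher there, opposite to Efna1. Cadherin and adhesion genes gave 8 of 50 higher and 3 lower: Flrt1, a leucine-rich repeat adhesion protein, read 1.58 and -1.48 (8.33-fold) but 0.06 apart on its other probe. Matrix genes gave 7 of 39 higher and 2 lower, with Timp1 above background only inside (at least 15.4-fold) and Nid1, a basement membrane protein, 3.23-fold higher outside. Tubulin and microtubule genes gave 3 of 34 higher and 1 lower; Tuba1c, of a family with near-identical members, read 1.42 and -0.53, with 1.88 on its other probe.

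Neuronal transcription factors gave 11 of 53 higher and 0 lower, beside 7.64% and 4.77% of all genes. After Ldb2 and Meis2, Cux2, a homeobox factor of upper-layer cortical neurons, was 5.37-fold higher (0.48 on its other probe), and Fezf2, a factor of deep-layer cortical neurons, 5.02-fold. Genes that every cell uses were even: 0 of 31 respiratory chain genes and 0 of 26 housekeeping genes differed 2-fold, with medians of -0.11 and -0.07, and 26 of the 31 respiratory genes lay below 0. Cholesterol and fatty acid synthesis gave 2 of 26 higher and 0 lower, with 21 above 0 and a median of 0.27, which moved to -0.04 under normexp correction less its median. Stress genes gave 2 of 21 higher and 2 lower.

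The senile pair shares no sample with the young pair, and its values are set beside it without a test of the difference. In the senile pair 1201 of 24014 genes were 2-fold higher inside (5.0%) and 1140 lower (4.75%), with a median of -0.11. Of 1576 genes higher inside in the young pair and compared in both, 295 were also 2-fold higher in the senile pair (18.7%) and 208 lower; of 993 lower in the young pair, 151 were also lower (15.2%) and 124 higher. Among genes with a mean level above the 75th percentile, 29 of 128 were higher in both pairs and 2 were lower in the senile pair, and 1 of 41 was lower in both.

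Lists of proliferation and stem cells had medians near 0 in the senile pair: 1 of 31 stem cell genes was 2-fold higher and 0 lower with a median of -0.07, and 3 of 38 mitotic genes were higher and 6 lower with a median of -0.01. Mki67 read -3.48 inside and -3.83 outside there, Hes5 2.18 and 1.46, and Dcx -0.64 and -0.75, while Eomes and Igfbpl1 were not well above background on either senile array. Of the 16 mitotic genes higher in the young pair and compared in both, 1 was also higher in the senile pair, Ccna2. Neuroblast genes gave 9 of 32 higher and 0 lower in the senile pair, with a median of 0.10 there and 0.43 in the young pair. Of the 13 neuroblast genes higher in the young pair, only 9 were compared in both pairs, and 8 of these were higher in both. Among the 8 were Gap43 (1.52 inside and -0.76 outside in the senile pair) and Cd24a. The rest of the 13 were not compared in the senile pair.

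Many interneuron and mossy cell genes were higher inside at both ages. In the senile pair 12 of 22 shared GABAergic genes were higher and 1 lower (median 1.14), 16 of 31 interneuron markers higher and 1 lower (1.09), and 9 of 28 mossy cell genes higher and 1 lower; Sst read 2.56 inside and -1.15 outside there, and Neurod6 of the CA fields -0.49 and -4.38. Cyp26b1 and Ldb2 differed by 4.39 and 4.36. Of the striatal genes 3 of 31 were higher and 1 lower in the senile pair with a median of -0.08, and their summed level was 77.3 inside and 96.27 outside. Penk read 3.55 inside and 3.83 outside in the senile pair. Mature granule genes had a senile median of -0.28, near the young one. Oligodendrocyte genes gave 10 of 24 higher and 0 lower with a median of 0.69 in the senile pair, against 0.05 in the young pair.

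**Figure D5:**
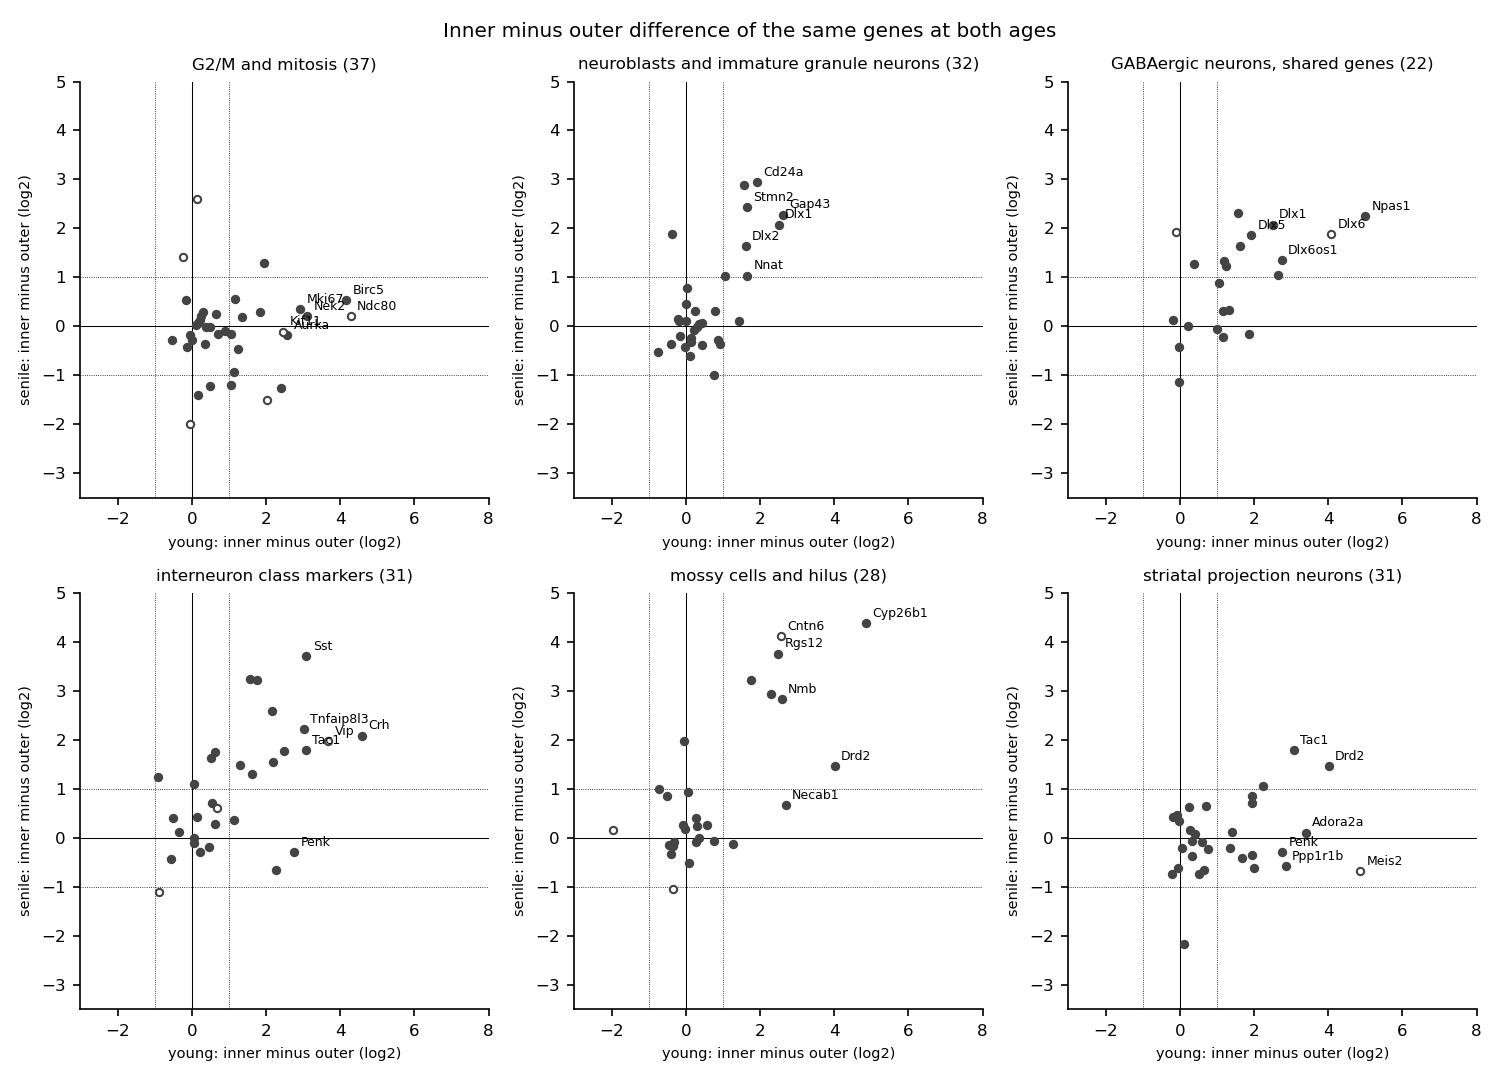
Inner minus outer log2 difference in the young pair (horizontal axis) and in the senile pair (vertical axis) for the genes compared in both, in 6 panels by list; open symbols are bounds in either pair. GABAergic, interneuron and mossy cell genes stretch along both axes, while mitotic and striatal genes stretch along the young axis: of 14 striatal genes higher in the young pair 3 were also higher in the senile pair.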

How the data were processed

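RNA was measured on 4 one-colour Agilent arrays (design 026655, mm9 probe positions per the file headers), 1 for each side of the granule layer at each age. Per the file headers, the authors' scanner files hold processed signals as intensity values from Feature Extraction 10.7.3.1 with protocol GE1_107_Sep09, whereas 9.5.3 is the version given in the submitters' processing notes. The authors' deposited table of log2 values was not used, because over 27261 shared probe names, each centred over the 4 arrays, its columns correlated with the scanner values of the same arrays at r of 0.0052 to 0.0112, so its pairing with probes, scale and centring stayed unknown; its column medians lay between -0.0133 and 0.0803.

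Control spots and outlier flags were left out, spots of a probe were averaged, log2 signals were set against the 75th percentile of each array, and the brightest of a gene's probes stood for the gene (7178 of the genes had several probes). A gene was compared when either array read it well above background. The floors for bounds were -5.87 on the inner and -5.99 on the outer array. Probes were grouped into genes by the name in the files. The symbols printed were then updated through accessions of the RefSeq table (26761 of 39429 probes), by symbol (3814) or by synonym (639), and 8215 kept the file's name. Where an exon or UTR holds a probe was not analysed here. The 52 gene lists (1576 entries) and the comparison itself were chosen with earlier results of these data known. A few listed or leading genes are not reported here by name; counts, medians and sums include them. No test was run, since each group had 1 array. Named were the 15 largest differences a direction among genes above background on both arrays, the 15 largest above the 75th percentile, the 6 largest bounds, members of the neurogenic, cell cycle, niche, GABAergic, mossy, CA and striatal lists, and up to 6 members of each other list. Alternatives were normexp background (offset 50, limma 3.58.1 in R 4.3.3), quantile and median scaling, other filters, probe means, grouping by RefSeq symbols and a 4-fold minimum. Subtracting the median after normexp, and leaving out striatal genes, were added after seeing the data. The calling was tested on simulated data with Python 3.11.15, numpy 2.4.6 and pandas 2.3.3. The simulation changed only genes of higher level and gave all genes the same noise. It therefore does not show how calls behave among dim genes, which gave most calls.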

Additional observations from a re-analysis of the deposited data

Results flagged for a closer look

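Among the named genes and list members, 30 of those reported were at least 2-fold apart in one direction in the young pair and at least 2-fold in the other direction in the senile pair. The lists held 1387 distinct genes, and the genes named for their fold come beside these. Of all 22902 genes compared in both pairs, 208 were higher in the young and lower in the senile pair, and 124 the other way. The 30 are therefore a description and not a result about these members. Each is given with its young and its senile inner minus outer log2 difference, and with the young minus the senile one. Every group has 1 array, so the difference between the ages was not tested, and some of the values are bounds.

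Dividing-cell genes that were higher inside in the young and lower inside in the senile pair were Foxm1 (2.02 and -1.51, 3.54 apart), Spc25 (2.41 and -1.26, 3.67 apart), Prc1 (1.06 and -1.21, 2.26 apart), Cdc6 (3.25 and -1.06, 4.32 apart), Mcm3 (1.25 and -1.15, 2.40 apart) and Prim1 (1.14 and -2.16, 3.30 apart). The largest gaps of this direction belonged to Lyl1 (4.36 and -3.44, 7.79 apart), Msx2 (4.46 and -2.98, 7.44 apart), Tbx1 (4.55 and -2.67, 7.22 apart) and Crispld2 (5.29 and -1.63, 6.91 apart). The senile value of Lyl1 and the young values of Tbx1 and Crispld2 are bounds. The other probe of Crispld2 differed by 0.09 in the young pair. The same direction was seen for Cxcl16 (2.11 and -1.02, 3.13 apart), Grm8 (1.10 and -1.25, 2.35 apart), Meis1 (3.37 and -1.28, 4.64 apart), Rarg (2.12 and -1.24, 3.36 apart) and Rlbp1 (1.12 and -1.22, 2.33 apart). It was also seen for Sema3a (1.90 and -1.50, 3.40 apart), Slc13a4 (1.35 and -1.51, 2.86 apart), Slc7a10 (2.29 and -1.09, 3.38 apart), Thbs4 (1.65 and -1.01, 2.66 apart), Tox3 (2.21 and -1.71, 3.92 apart) and Tshz2 (1.83 and -2.51, 4.33 apart).

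The opposite order, higher outside in the young and higher inside in the senile pair, was seen with the largest gaps for Efna1 (-5.45 and 1.62, -7.07 apart), Jag2 (-3.99, a bound, and 2.11, -6.09 apart), Esrrb (-3.90, a bound, and 1.36, -5.26 apart) and Sgcd (-3.10 and 1.15, -4.25 apart). It was also seen for Aqp1 (-1.56 and 1.60, -3.16 apart), Areg (-2.23 and 1.07, -3.31 apart), Bmp6 (-1.37 and 1.35, -2.72 apart), Coch (-1.39 and 1.56, -2.94 apart) and Nid1 (-1.69 and 2.91, -4.60 apart).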

How the results depend on the processing

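Background correction moved the results most. Under normexp 1060 genes were 2-fold higher inside and 71 lower, with 7 radial glia genes and 11 G2/M genes higher. With its median over all genes of 0.30 subtracted, the totals were 385 and 381, and the counts higher inside were 2 for radial glia, 3 for intermediate progenitors, 8 for neuroblasts, 4 for G1/S, 7 for G2/M, 6 for GABAergic genes, 4 for CA field genes and 12 for striatal genes, while the mature granule median was -0.66. Without filter or floor 2725 genes were higher and 1768 lower, and a 4-fold minimum left 542 higher and 246 lower. Of 188 named genes at least 2-fold apart, 145 stayed so in the same direction under normexp, 114 with its median subtracted, 171 with the mean of a gene's probes, 182 under median scaling, 185 under quantile scaling and 187 under RefSeq symbols. The sign turned for Etv4 (-0.22) and Ptprb (1.09) on the mean of their probes, for Gli2 (0.52 under normexp, 0.22 with the median subtracted) and for Sgcd (0.40 under RefSeq symbols, which pair it with another probe); the cause was not tested for the others. No paired analysis was possible because each group has 1 array and the labels give no replicate numbers, and for the same reason no array could be left out. Signal over background limits the dim genes: 6322 genes were not well above background on either array.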
